A study of Homo sapiens with 6 samples.

Results

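The regions described here are 5′ splice sites that can be spliced to the start of a last exon or to another exon start more than 500 nt away. A 3′ splice site was taken as the start of a last exon when no annotated 5′ splice site lay on the same strand within 5000 nt downstream of it in any of the 6 libraries. Of 195842 annotated 3′ splice sites, 30475 (15.56%) met that definition. A 5′ splice site was kept when annotated junctions joined it to exactly 1 such site and to at least 1 other 3′ splice site over 500 nt from it. At least 20 uniquely mapped reads had to cross these junctions in every library, with at least 10 reads over all libraries on each of the sides. In all, 3903 sites met the rule on position, 2038 of them had under 20 reads in some library and 835 had a side with under 10 reads, which left 1030 members among the 6573 5′ splice sites tested. Members were thus selected on read depth summed over sides or over libraries, and not directly on the difference between the groups. A rarely used side could still reach its minimum of 10 reads through 1 group alone, and for such members the filter is not independent of the difference. At the edge of these minimums, 17 members had exactly 20 reads in their lowest library and 17 sites were left out with 19. A further 27 members had exactly 10 last-exon reads over all libraries and 37 sites were left out with 9.

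The value given for each member is the last-exon share, the percentage of its reads that were spliced to the last exon. The share is a proportion of the junction reads present and not an amount of RNA, and the stability of the transcripts was not measured. Positions are on human genome build hg19, 1-based, and mark the first intron base for a 5′ splice site and the last intron base for a 3′ splice site. Gene models of that build were not used here, so members are identified by position and strand.

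A last exon ends in a polyadenylation site instead of a 5′ splice site, so a gene with several last exons can make transcripts that differ in their coding end and in their 3′ untranslated region. When a last exon lies inside an intron of a longer transcript, using its 3′ splice site competes with splicing across it to the next exon. U2AF1 is the small subunit of the U2AF heterodimer, which binds the AG dinucleotide at the end of the intron early in spliceosome assembly. S34F, a recurrent substitution in myelodysplastic syndromes and other cancers, replaces serine with phenylalanine in the first zinc finger of U2AF1 and is known to alter which 3′ splice sites are used.

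The samples were 6 poly(A)-selected RNA libraries of K562, a human chronic myeloid leukaemia cell line. In 3 of them the cells carried a knock-in of wild-type U2AF1 (WT below) and in the other 3 the U2AF1 S34F mutation. The junction tables hold no base calls, so the genotypes were taken from the labels. The labels name no treatment and do not say whether a group came from 1 clone or from separate cultures, so p-values measure only the spread between these libraries, which may be technical. Each library held 18074706 to 39279169 uniquely mapped spliced reads, S34F replicate 3 being the deepest and S34F replicate 2 the shallowest. The median member had 90 to 215.5 reads per library. Unannotated junctions at the members' 5′ splice sites took 0.812% ± 0.017 of their reads in WT and 0.859% ± 0.090 in S34F (SD, n = 3), so nearly all reads at these sites were on annotated junctions in both groups.

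The members fell into 3 kinds by position, and the name alternative last exon fits 2 of them. In 312 members (30.3%) the last exon was nearer to the 5′ splice site than every other acceptor, so that the choice was between ending the transcript there and splicing past it. In 669 members (65.0%) the last exon was farther away than at least 1 other acceptor, and an annotated junction also joined an exon in between to it. In 34 of the 669, other counted acceptors lay beyond the last exon as well. Both routes through an inner exon can end in the same last exon, and the last-exon share then measures skipping of the exon or exons in between. In the 34, the share is also set against splicing past the last exon. In 585 of these 669 (87.4%) an annotated inner 5′ splice site lay within 500 nt of the most-read other acceptor and marked an exon with it, of a median length of 113 nt. In 355 of the 585 there was no other inner 5′ splice site and no further counted acceptor, so that the junction bypassed that exon alone. In the remaining 49 members (4.76%) the last exon was farther away than at least 1 other acceptor and no annotated junction led from in between to it.

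The kinds also differed in the reads that entered the last exons, which their definition largely fixes. A member with an inner exon has by definition a further annotated junction into its last exon. In 302 of the 312 members with the nearer last exon, the member's own 5′ splice site supplied at least 90% of the reads into that exon. In members with an inner exon the median supply was 16.9%, the rest coming from other 5′ splice sites. The 1030 members used 960 different last-exon sites, and 133 members shared theirs with another member. Most members were simple choices. A single other acceptor was present in 711, and in 911 the most-read other acceptor held at least 90% of the reads that did not go to the last exon. The last-exon intron had GT-AG ends in 1023 members, GC-AG in 6 and AT-AC in 1.

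**Figure D1:**
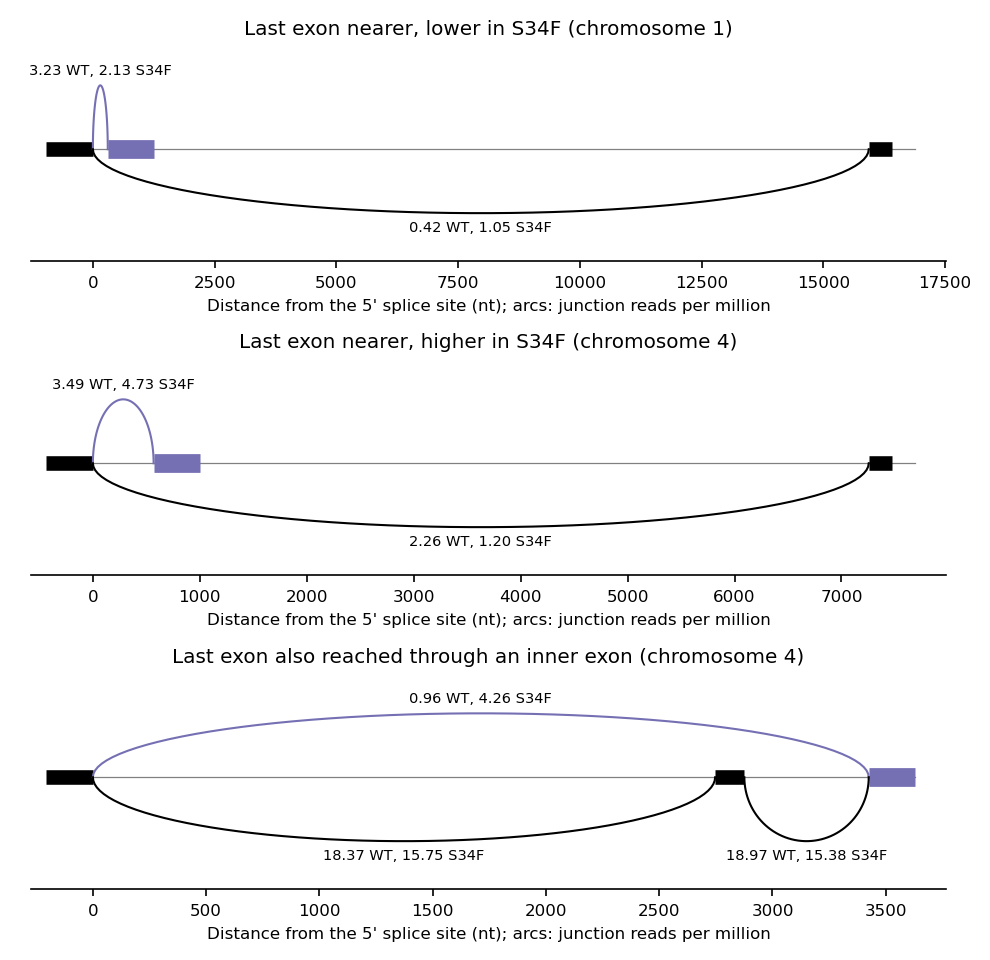
Examples of members drawn by distance from the shared 5′ splice site in nt, with arcs for junctions labelled by the mean of 3 libraries in RPM, reads per 1000000 uniquely mapped spliced reads; the last exon and the junction to it are violet, the other acceptor is black, and box lengths other than that of the inner exon in the lowest map are not to scale. In the upper map the nearer last exon went from 3.23 to 2.13 RPM while the distant acceptor went from 0.417 to 1.05, and in the lowest map the junction that skips the inner exon went from 0.957 to 4.26.

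The junction to the last exon was usually the minor one at its 5′ splice site. In WT the median last-exon share was 10.1% over all members, 8.75% for the nearer last exons, 13.5% for those with an inner exon and 4.29% for the others. It lay under 10% in 511 members and above 90% in 163. The spread between replicates was small beside this range, with a median SD of 2.23 points in WT and 1.97 points in S34F. Distances differed by kind, which the definition partly fixes. No annotated 5′ splice site may lie within 5000 nt downstream of a last-exon site. An exon beyond a nearer last exon must therefore have its 5′ splice site farther away than that, while an inner exon has no such limit. The last exon and the most-read other acceptor were a median of 13210 nt apart where the last exon was nearer and 2768 nt apart where it was also reached through an inner exon. The introns to be removed had a median of 1848 nt for the nearer last exon against 18144 nt for the acceptor beyond it.

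The first comparison asked whether the last-exon share differed between S34F and WT. In 19 members the share rose and in 21 it fell, by a median of 19.2 points, while the median member did not move (a difference of −0.03 points, quartiles −2.13 and 2.60). A member was called when the Benjamini-Hochberg adjusted p of edgeR's quasi-likelihood test over all 6573 sites was under 0.05 and the group means differed by at least 10 points. The 40 calls were 3.88% of the members. Over all sites tested the same rule called 4.09%, with 2.28% higher and 1.81% lower, so the members' count is near the background and is not a result about them. Sites that are not members enter with the share of their farthest acceptor, so only the total, not the split by direction, is a like comparison. Among members with a WT share between 10% and 90%, 8.71% were called, against 8.96% of all sites in that range.

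Looser counts were also near the background. An adjusted p under 0.05 with no minimum difference was reached by 82 members, 40 higher and 42 lower, where 7.42% of all sites reached it. An unadjusted p under 0.05 was found for 272 members (26.4%; 23.3% of all sites). The 3 S34F libraries lay wholly above the 3 WT libraries in 148 members and wholly below them in 148, or 28.7% together against 27.6% of all sites. A difference of at least 10 points, without a test, was seen in 138 members (13.4%; 12.2% of all sites).

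The number of calls varied with the test used and with the libraries kept. Of the 40 called members, 6 passed with DESeq2 and 0 with limma on log2 odds, where their adjusted p ran from 0.0652 to 0.199 and 222 members (21.6%; 20.1% of all sites) had an unadjusted p under 0.05. Without S34F replicate 3, edgeR called 5 members, all higher. Without WT replicate 1 it called 70 (40 higher, 30 lower) and 391 of all sites. The other left-out libraries gave 14 to 27 members. The difference in group mean shares does not depend on the test, so its direction could not change with DESeq2 or limma. In the fits without 1 library all 40 called members kept their direction, on libraries that the calls had also used.

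**Figure D2:**
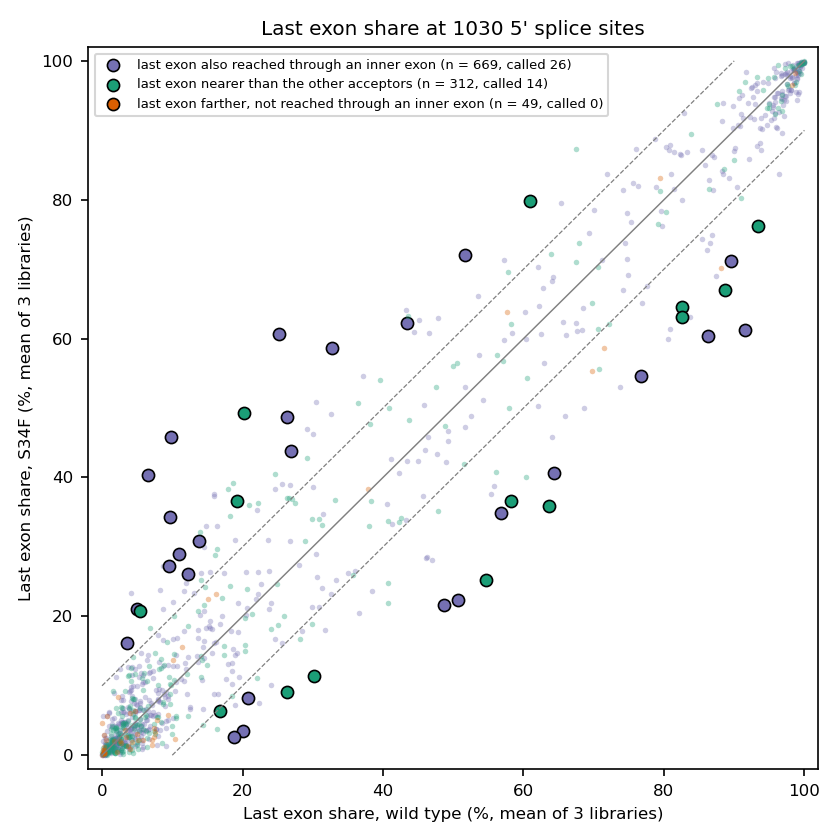
Mean last-exon share in S34F against that in WT (percent, 3 libraries each) for the 1030 members, coloured by kind, with called members as outlined large points and dashed lines at a difference of 10 points. Most members lie along the diagonal near either end, and the 40 called members lie on both sides of it, 19 above and 21 below.

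The called members were also described by the reads of each route. The calls were made on these same reads, so opposite signs are largely built in and the counts support nothing. They take the sign of the difference in group means with no minimum size. At chr12:62719715, for example, the other reads were 7.53 ± 0.47 RPM in WT and 7.63 ± 1.2 in S34F. Among the 19 members called higher, 18 had more last-exon reads in RPM (reads per 1000000 uniquely mapped spliced reads) and fewer reads to the other acceptors in S34F, and 1 had more of both. Among the 21 called lower, 19 had fewer last-exon reads and more others, and 2 had fewer of both. In bulk RNA, fewer cells that use a route and less RNA of it per cell cannot be told apart. In 9 of the 40 called members the last exon crossed 50%. The 40 used 40 different last exons. The WT and S34F values overlapped in 2 of them, chr3:25770623 and chr6:170058371. Depth limited single values, as 14 of the 40 had under 50 reads in their lowest library. The 95% Clopper-Pearson intervals of single libraries, which cover counting error only, were 3.30 to 38.4 points wide among called members.

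Where the last exon was nearer than the other acceptors, 14 of 312 members were called (4.49%; 4.09% of all sites), 4 with a higher share in S34F and 10 with a lower one. A lower share here is a smaller part of the reads joined to the early last exon and a larger part spliced past it. The 10 fell by 10.5 to 29.4 points. By the sign of the group means alone, 8 of them had more reads past the last exon in S34F and fewer into it, both in RPM. DESeq2 and limma called 0 of the 312, and 56 and 0 of all 6573 sites. At an unadjusted p under 0.05 there were 46 of the 312 with DESeq2 and 68 with limma. With limma that p was reached by 1321 of all 6573 sites (20.1%), and for DESeq2 the count over all sites is not given here. The split by direction in edgeR moved with single libraries. Without WT replicate 1 there were 16 higher and 8 lower, with 391 of all sites called. Without S34F replicate 3 none was called (edgeR gave 60 of the 312, or 19.2%, an unadjusted p under 0.05, and 16.7% of all sites). The other left-out libraries gave 3 to 7 calls. Of all sites, 128 were called without WT replicate 2 and 171 without WT replicate 3.

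The fall with the lowest adjusted p in this kind was at chr1:36202514 on the minus strand, where the last exon begins after an intron of 306 nt and the other acceptor lies 15932 nt away. The last-exon share was 93.0%, 83.7% and 89.3% in the WT libraries and 66.7%, 70.3% and 63.8% in the S34F libraries, on 63 to 130 reads each. All S34F values were below all WT values. The mean went from 88.7% ± 4.70 to 66.9% ± 3.24 (SD, n = 3), a log2 odds change of −1.96 ± 0.45 (SE; edgeR adjusted p = 0.00825, and 0.0846 without S34F replicate 3). Reads to the distant acceptor went from 0.417 ± 0.18 to 1.05 ± 0.15 RPM and those into the near last exon from 3.23 ± 0.20 to 2.13 ± 0.35.

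A similar fall was seen at chr7:23164792 on the plus strand, with a last-exon intron of 587 nt. The WT shares were 77.7%, 78.9% and 91.0% and the S34F shares 64.4%, 64.2% and 60.6%. The groups were 13.2 points apart at their nearest values, and the mean difference was −19.5 points (edgeR adjusted p = 0.0278). Here the reads into the last exon went from 5.77 ± 0.97 to 2.32 ± 0.19 RPM while those past it were 1.20 ± 0.50 and 1.36 ± 0.025. The groups thus differed more in the reads into the last exon than in those past it.

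At chr13:95768175 on the minus strand the nearer last exon was the minor route in WT. Its share was 31.1%, 30.2% and 29.0% in WT and 11.3%, 7.84% and 15.1% in S34F. The WT libraries spanned 2.1 points and all S34F values lay below them, with an edgeR adjusted p of 0.0152 for the difference of −18.7 points. The member at chr17:16120776 on the plus strand has the shortest last-exon intron among those called, 85 nt. Its share went from 26.3% ± 6.67 to 9.16% ± 3.90, and the reads of both routes were lower in S34F.

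Shares also fell at chr6:107595232 (63.7% to 35.9%), chr5:132358532 (58.2% to 36.6%), chr20:57248768 (82.5% to 64.5%), chr22:28318167 (93.5% to 76.2%) and chr9:128305337 (16.8% to 6.31%). The largest fall, at chr6:170058371 on the minus strand, had overlapping groups. Its WT shares were 32.1%, 60.0% and 71.8% and its S34F shares 23.8%, 32.1% and 19.7%, on 28 to 61 reads. WT replicate 1 and S34F replicate 2 were at the same level, and the edgeR adjusted p was 0.0337.

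In the other direction, 4 nearer last exons gained share. At chr4:129028469 on the plus strand, with introns of 568 nt and 7255 nt, the WT shares were 60.0%, 64.6% and 58.4% and the S34F shares 77.4%, 83.3% and 78.8%. The groups were 12.9 points apart at their nearest values, with a log2 odds change of 1.32 ± 0.38 (edgeR adjusted p = 0.0294). Reads past the last exon went from 2.26 ± 0.60 to 1.20 ± 0.33 RPM. At chr9:72374768 on the minus strand the mean share went from 20.3% ± 11.8 to 49.3% ± 11.8, and the lowest S34F library, at 40%, was above the highest WT library, at 33.3%. The other gains were at chr12:22796957 (19.3% to 36.6%) and chr9:26884807 (5.39% to 20.8%).

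**Figure D3:**
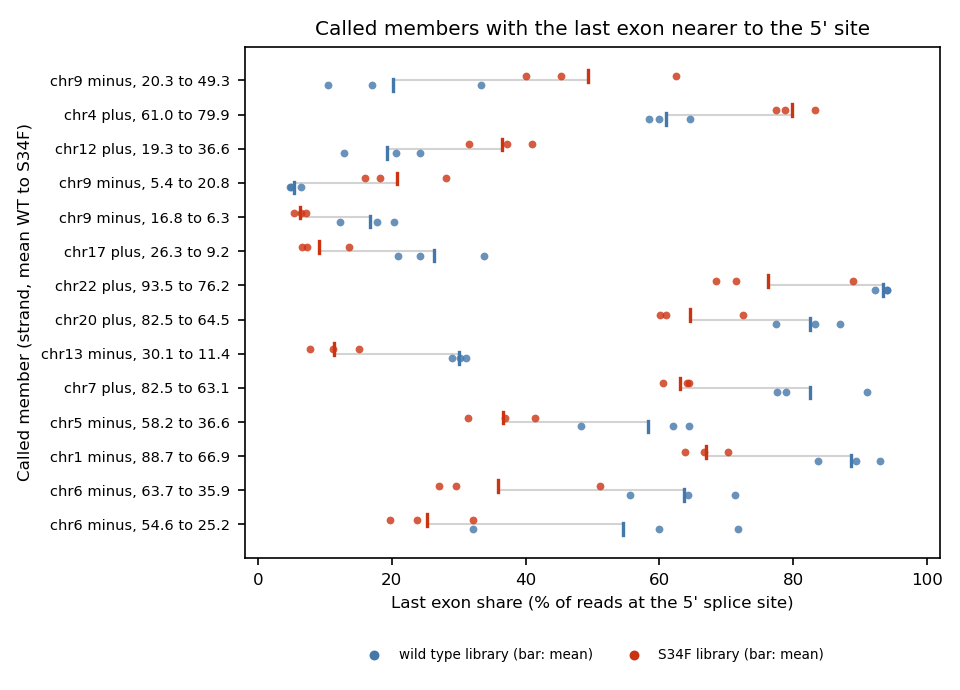
Last-exon share in percent in each library for the 14 called members whose last exon is nearer to the 5′ splice site, ordered by the difference between means; dots are libraries, short bars are group means and grey lines join them. The member at the bottom, which went from 54.6% to 25.2%, is the one in which WT and S34F libraries overlap.

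Members in which the last exon is also reached through an inner exon held the other 26 calls among 669 (3.89%; 4.09% of all sites), 15 higher and 11 lower. A higher share here is a larger part of the reads skipping the inner exon. In 2 of the 26, chr1:65891062 and chr12:62719715, counted acceptors also lay beyond the last exon. In 24 of the 26 the most-read other acceptor began an exon of 39 to 360 nt, with a median of 129 nt, and in 13 of these the junction bypassed that exon alone; the others had further acceptors or inner 5′ splice sites. The length was a multiple of 3 in 15 of the 24 (62.5%) and in 229 of the 585 such exons in all members of the kind (39.1%). This difference was not tested. Without S34F replicate 3, 5 of the 26 were still called, all higher, and the other left-out libraries kept 11 to 26 of them.

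These 5 members also passed with DESeq2. The largest rise was at chr5:41934411 on the plus strand, where the junction to the last exon at 41941293 skips an exon of 176 nt at chr5:41939543-41939718. The skipping share was 14.1%, 6.56% and 8.93% in WT and 43.9%, 40.4% and 53.0% in S34F, on 41 to 71 reads per library. Every S34F library was at least 26.3 points above every WT library, although single values had intervals of 14.1 to 31.8 points. The log2 odds rose by 2.93 ± 0.52 (edgeR adjusted p = 0.000720, DESeq2 adjusted p = 0.00420, and 0.0238 without S34F replicate 3).

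At chr12:125270902 on the minus strand an exon of 129 nt (chr12:125267229-125267357) was bypassed. The shares were 32.4%, 23.1% and 20% in WT and 52.4%, 67.8% and 62.0% in S34F. The skipping route was the minor one in every WT library and the major one in every S34F library (edgeR adjusted p = 0.000911, and 0.0289 without S34F replicate 3). Reads to the inner exon went from 7.32 ± 2.4 to 2.12 ± 0.75 RPM, while the skipping reads were 2.69 ± 1.8 and 3.19 ± 0.25.

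The member at chr3:3195107 on the minus strand varied more. Skipping of its 132 nt exon took 15.9%, 0.909% and 2.70% of the reads in WT and 22.6%, 45.8% and 52.5% in S34F. WT replicate 1 was the highest of its group and S34F replicate 1 the lowest, 6.7 points apart (edgeR adjusted p = 0.00137, and 0.0498 without S34F replicate 3).

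Smaller changes were measured on more reads. At chr4:39776554 on the plus strand, with an exon of 129 nt at chr4:39779302-39779430, the skipping share was 3.31%, 3.21% and 8.42% in WT and 21.5%, 17% and 24.8% in S34F, on 335 to 836 reads. The groups were 8.6 points apart at their nearest values and the mean went from 4.98% ± 2.98 to 21.1% ± 3.89. This member had the lowest adjusted p of all 1030, 0.000304 in edgeR and 0.00515 in DESeq2, and 0.0138 without S34F replicate 3. Skipping reads went from 0.957 ± 0.56 to 4.26 ± 1.1 RPM, and reads to the inner exon from 18.4 ± 1.1 to 15.8 ± 0.33. At chr14:103946828 on the plus strand the share went from 5.63%, 2.30% and 2.90% in WT to 17.3%, 14.5% and 16.4% in S34F, skipping 258 nt. The S34F libraries spanned 2.8 points and the edgeR adjusted p was 0.00304 (0.0410 without S34F replicate 3).

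Further rises called by edgeR but not by DESeq2 covered shares from low to high. The skipping share went from 9.63% ± 5.67 to 34.3% ± 2.05 at chr16:23625324, from 26.3% ± 5.16 to 48.7% ± 8.71 at chr16:58426692 and from 10.9% ± 2.56 to 29.0% ± 9.36 at chr17:5329403. It passed 50% at chr15:91512676, where it was 37.2%, 34.8% and 26.3% in WT and 55.8%, 62.1% and 58.0% in S34F, and at chr17:57208641 (43.5% ± 3.66 to 62.3% ± 4.29). At chr6:125569530 its mean was above 50% in both groups (51.7% ± 2.54 in WT and 72.1% ± 4.01 in S34F), although WT replicate 2 was at 48.8%. At chr2:74372315, the deepest of the rises with 729 to 1280 reads per library, it was 23.1%, 28.1% and 29.6% in WT and 39.7%, 45.4% and 46.2% in S34F (edgeR adjusted p = 0.0266). The rise at chr3:25770623 had overlapping groups, since WT replicate 1 at 19% was above S34F replicate 1 at 18.8%. The last of the 15 were at chr1:65891062 (12.2% to 26.1%) and chr4:146002811 (13.8% to 30.8%).

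In the 11 members called lower, a larger part of the reads in S34F was joined to the other acceptors. The one that also passed with DESeq2 was at chr16:4927113 on the plus strand, where an exon of 90 nt was skipped in 10.4%, 25.4% and 20.4% of reads in WT and 4.84%, 1.92% and 1.29% in S34F. All S34F values were under all WT values, a log2 odds change of −3.15 ± 0.67 (edgeR adjusted p = 0.00431, DESeq2 adjusted p = 0.0461, and 0.107 without S34F replicate 3). A like change from a minor route to a rare one was seen at chr12:57486979 (20% ± 5.85 to 3.50% ± 1.19), with an exon of 192 nt. At both sites the skipping reads in S34F alone were under 10, so the minimum for that side was met through WT, the group where the share is higher.

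The fall with the most reads was at chr3:186505672 on the plus strand, with 457 to 918 reads per library and a bypassed exon of 111 nt at chr3:186506099-186506209. The skipping share was 55.3%, 64.8% and 72.8% in WT and 48.9%, 41.6% and 31.3% in S34F. The groups were separated by 6.4 points, which is less than the 17.5 points between the WT libraries themselves (edgeR adjusted p = 0.0122, DESeq2 adjusted p = 0.141). Skipping reads went from 18.0 ± 4.2 to 9.66 ± 2.1 RPM and inner-exon reads from 9.77 ± 1.5 to 14.2 ± 2.3. At chr1:71532458 on the minus strand, with a 75 nt exon, the share was 49.5%, 61.5% and 59.4% in WT and 32.1%, 34.4% and 37.9% in S34F. Here too the lowest WT library was above every S34F library, by 11.5 points (edgeR adjusted p = 0.0171).

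The largest fall was at chr19:23844915, from 91.5% ± 8.81 to 61.3% ± 13.8, on only 28 to 44 reads per library. It has 2 other acceptors, the most-read of which held 55.8% of the other reads, and against that one alone the difference was −17.6 points and not called (edgeR adjusted p = 0.0766). Other shares called lower were those at chr12:111893832 (50.7% to 22.3%), chr9:135145001 (48.6% to 21.7%), chr20:43653772 (86.3% to 60.4%), chr17:71223303 (76.8% to 54.6%) and chr12:62719715 (20.8% to 8.31%). At chr22:41999262 the share went from 89.5% ± 1.76 to 71.2% ± 2.64, where the WT libraries spanned 87.7% to 91.2% and the S34F libraries 68.2% to 73.1%.

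**Figure D4:**
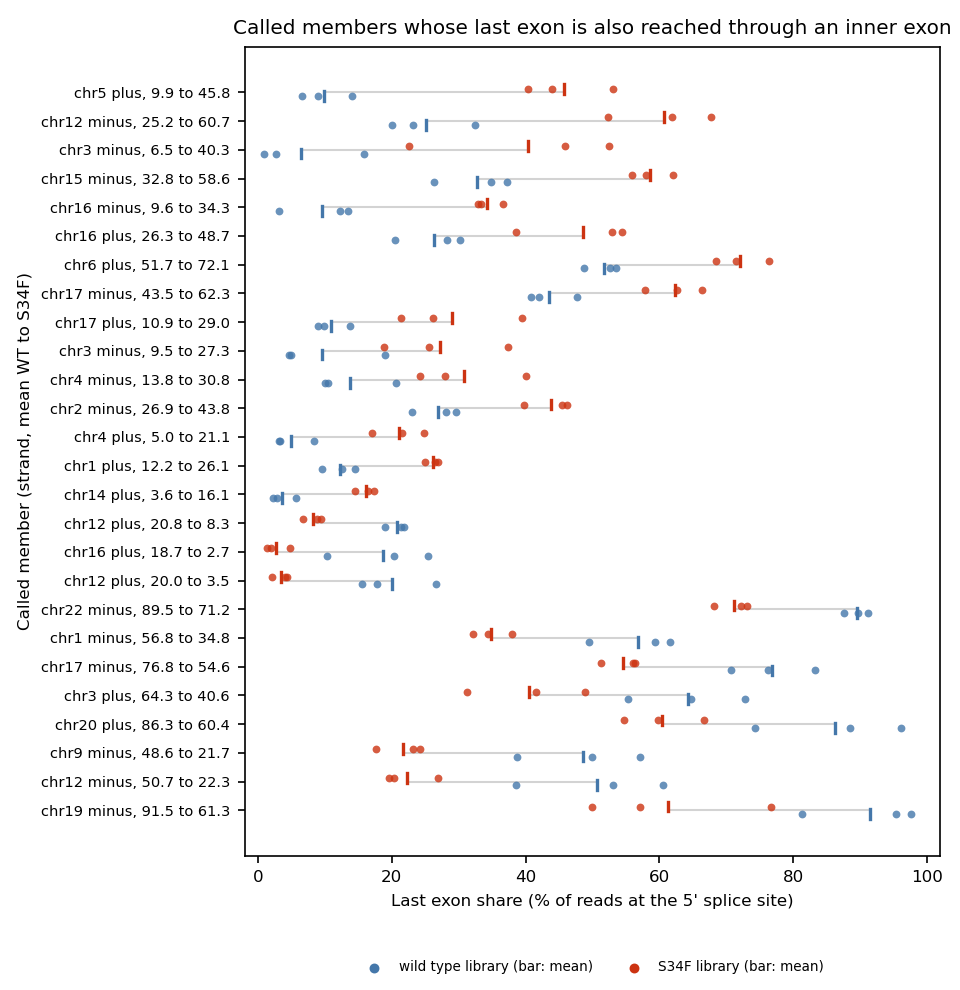
Share of the junction to the last exon in percent in each library for the 26 called members in which an inner exon leads to the same last exon, ordered by the difference between means; dots are libraries, short bars are group means and grey lines join them. The 15 members called higher fill the upper rows and the 11 called lower the rest, and in all but the one that went from 9.5% to 27.3% the WT and S34F dots do not overlap.

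Skipping can also be read from the other end of the junction, as the member's part of the reads that entered the last exon from its 5′ splice site or from inner ones. Both views count the same skipping reads and so are not independent, but they set them against different junctions. The 26 were also called on these reads, so the counts that follow describe them and support nothing. In 24 of the 26 the second view differed in the same direction, and in 21 the groups did not overlap in it, as in 183 of the 617 members of this kind with at least 20 reads in every library in this view (29.7%). The median absolute difference was 17.1 points from the last exon's end and 21.2 points from the 5′ splice site. At chr4:39776554 the share from the last exon's end went from 4.71% ± 2.46 to 21.5% ± 3.72, close to the values from the 5′ splice site. At chr16:58426692, where 2 other acceptors were counted, the difference was smaller from the last exon's end (21.0% ± 4.50 to 31.4% ± 0.22).

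The exceptions were chr22:41999262 and chr12:62719715. Nearly all reads into their last exons came from the member's own 5′ splice site, 99.7% ± 0.469 in WT and 99.8% ± 0.324 in S34F for the first and 100% in every library for the second. The annotated inner junction that placed them in this kind was therefore close to unused in these cells. At chr12:62719715 the most-read other acceptor, with 71.2% of the other reads, lay beyond the last exon, 23286 nt against 9231 nt away. Its share is thus set mostly against splicing past the last exon and not against an inner exon. Under 10 reads over all libraries left the inner 5′ splice sites in 31 of the 669 members of this kind, these 2 included.

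**Figure D5:**
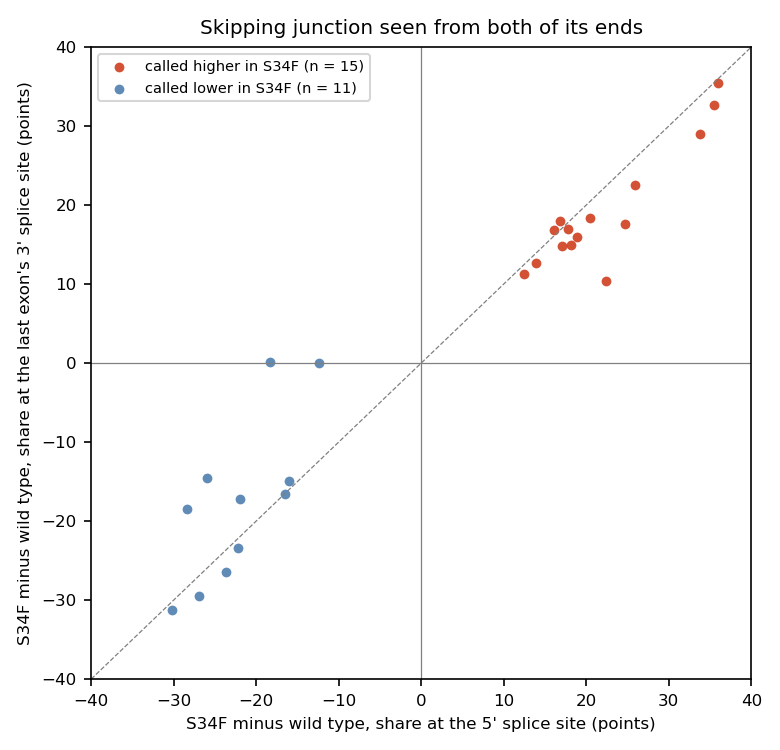
Difference in share between S34F and WT (percentage points, means of 3 libraries) at the last exon's 3′ splice site against that at the shared 5′ splice site, 1 point for each of the 26 called members with an inner exon; the dashed line marks equal differences. Apart from 2 points at 0 on the vertical axis, the differences have the same sign from both ends.

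None of the 49 members whose last exon lay farther away and was not reached from in between was called (0%; 4.09% of all sites). Low shares limit such calls. In 36 of the 49 the WT share was under 10% (73.5%; 45.6% of all sites), so it could not fall by 10 points. Only 3 differed by at least 10 points (6.12%; 12.2% of all sites). An unadjusted p under 0.05 was given by edgeR to 18 of the 49 (36.7%; 23.3% of all sites). DESeq2 and limma also called 0 of the 49, with 11 and 14 at an unadjusted p under 0.05. With limma that p was reached by 20.1% of all sites, and for DESeq2 that share is not given here. In 5 of the 49 the edgeR adjusted p was under 0.05 with a difference of under 10 points, and they are named here because of that result. Their last exons took a small part of the reads. At chr14:65392799 on the plus strand the last-exon share was 1.13%, 0.490% and 0.472% in WT and 8.21%, 3.90% and 4.64% in S34F. The lowest S34F value was more than 3 times the highest WT value (edgeR adjusted p = 0.00692, and 0.0411 without S34F replicate 3).

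At chr11:134023183 on the minus strand no read reached the last exon in the WT libraries, of 111, 146 and 85 reads, which allows a share of up to 2.70%, 2.05% and 3.53% by a limit of 3 reads of the total, counting error only. In S34F the share was 1.32%, 5.56% and 7.19%, so that S34F replicate 1 lay within the WT limits and replicates 2 and 3 above them (edgeR adjusted p = 0.00796). All last-exon reads of this member were in S34F, so it met the minimum of 10 only through that group. Its p-value is therefore not independent of the filter. At chr2:99786012 the share went from 2.29% ± 0.345 to 8.35% ± 2.00. It was lower in S34F at chr1:37967404 (4.04% ± 0.817 to 0.824% ± 0.102) and at chr3:183732051 (10.4% ± 1.09 to 2.38% ± 1.93). The last-exon reads at chr14:65392799 and chr2:99786012 were also too few in WT alone to reach the minimum of 10, and those at chr3:183732051 too few in S34F alone.

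Distance between the acceptors was set beside direction, over all kinds. A higher share is more use of the farthest acceptor at sites that are not members, but of the nearest where a member's last exon is nearer. The directions of members and of all sites are therefore not like measures, and only the total percentages can be set side by side. Of 309 members with acceptors more than 10000 nt apart, 3 were called higher and 11 lower (4.53%), and of all 1190 sites with such a distance 17 were higher and 27 lower (3.70%). Most of the 11 were members with the nearer last exon. Of the 266 members with up to 2000 nt between acceptors, 7 were higher and 5 lower (4.51%), against 74 and 42 of all 2411 such sites (4.81%). The 455 members in between gave 9 higher and 5 lower (3.08%), against 59 and 50 of 2972 sites (3.67%). Put as a choice between near and far, 26 of the 40 called members (65.0%) moved to the more distant acceptor, as did 131 of the 229 called sites that were not members (57.2%). The difference between these shares was not tested.

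The members with the most reads had last-exon shares within 1 point of 0% or 100% in every library, where a difference in points is small whatever the change in odds. At chr7:44839474 on the plus strand the last exon took 99.2% to 99.4% of 6725 to 15531 reads in every library (99.4% ± 0.116 in WT and 99.3% ± 0.0595 in S34F). At chr15:69745360, the deepest member with 16272 to 39036 reads per library, the last exon took 0% to 0.0307%, and where it took no read the limit was at most 0.0184%. On chromosome 8 the deepest member had a share of at most 0.0400% in every library. At chr5:180666066 and chr5:180665098, neighbouring 5′ splice sites that share 1 last exon, the mean shares were 0.0591% and 0.120%, and 0.0679% and 0.0576%, in WT and S34F. The log2 odds of the first were higher by 0.96 ± 0.50 in S34F. The edgeR adjusted p of these 5 members lay between 0.247 and 0.90.

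An exception among the deep members was chr11:8705629 on the plus strand, where a very small difference reached a low adjusted p. The junction to the last exon, which skips an exon of 175 nt, took 0.162%, 0.115% and 0.0965% of the reads in WT and 0.242%, 0.383% and 0.472% in S34F, on 20107 to 27136 reads per library. All S34F libraries were above all WT libraries, and the log2 odds were higher by 1.53 ± 0.35 (edgeR adjusted p = 0.00731, DESeq2 adjusted p = 0.0967). The difference of 0.241 points was far under the 10 points needed for a call.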

How the data were processed

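The authors deposited 1 splice junction table per library, in the layout written by STAR; STAR and build hg19 are named per the submitters' processing notes, and the aligner version and annotation are not given in the sources used here. The deposited values are raw counts of uniquely mapped reads per junction, with multi-mapped reads in a separate column that was used only in an alternative. The tables were joined to 780566 junctions, of which 242682 were annotated; 1462 annotated junctions without a strand were left out.

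Each of the 6573 5′ splice sites with at least 20 reads in every library and 10 on each side gave 2 counts per library: reads to the last exon and to all other annotated acceptors over 500 nt from it. Sites without exactly 1 last exon used their farthest acceptor in its place. The counts were tested with edgeR 4.0.16 (R 4.3.3; quasi-likelihood F-test, legacy mode, robust), whose model held the count type, its interaction with S34F and a separate intercept for each library, so library size does not enter. A standard error is the coefficient over the square root of F. The test was also run on simulated counts, and no result here rests on them. DESeq2 1.42.0, limma 3.58.1 (pseudocount 0.5), other filters, windows and read classes, and leaving out each library were alternatives. Junctions were joined and counted with numpy 2.4.6 and pandas 2.3.3 under Python 3.11.15, and scipy 1.17.1 gave the Clopper-Pearson intervals.

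The members and lists were chosen with earlier results of these data known. Named members are up to 12 called in each direction by size and the 6 with the most reads, and further called members were named after their values were seen. Genome sequence, gene names and cell type markers were not used here. Same-numbered WT and S34F libraries had correlations of −0.0793, −0.0118 and −0.0506 in their deviations from the group means, so the numbers were not taken as pairs.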

Additional observations from a re-analysis of the deposited data

How the results depend on the processing

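In each alternative below, the called members that were present kept their sign, and the median difference over the members stayed within −0.068 to 0.017 points. Where only the test or the minimum difference was changed, the differences are the same values, so neither could change there. Of the 40 called members, 26 had at least 50 reads in every library, and all 26 were called again when that was the minimum. Against 19 members called higher, 21 lower and 269 of all sites, DESeq2 called 5, 1 and 56, limma 0, 0 and 0 (1321 of all sites at an unadjusted p under 0.05), and edgeR's newer dispersion 29, 25 and 326. With the replicate block they were 14, 18 and 182, with 8 of the 14 nearer last exons still called. With at least 50 reads in every library there were 16, 11 and 164, without a filter on low counts 14, 20 and 173, and with acceptors at any distance 31, 24 and 418. Allowing more than 1 last-exon site gave 30, 35 and 277, with 1403 members. Leaving out members with an inner exon gave 4, 10 and 248, with 361 members. A minimum difference of 20 points gave 8, 11 and 120, and no minimum 40, 42 and 488. Leaving out 1 library gave 5 to 40 higher, 0 to 30 lower and 48 to 391 of all sites. The fewest calls came without S34F replicate 3 (190 members, 18.4%, at an unadjusted p under 0.05, and 16.7% of all sites) and the most without WT replicate 1. In 26 of the 40 called members WT replicate 1 was the WT library nearest to the S34F mean. Differences that were not called changed sign at chr5:180665098 with multi-mapped reads added (0.0136 points), at chr7:44839474 without WT replicate 2 (0.00996; −0.101 to 0.00996 over left-out libraries) and at chr15:69745360 without WT replicate 3 (−6.07e-05) and S34F replicate 3 (−0.00163; −0.00163 to 0.0138 over left-out libraries). The cause was not tested.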

Other observations

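Multi-mapped reads, which were counted only in the alternative that adds them, made up 4.34% ± 0.13 of the reads at the members' 5′ splice sites in WT and 4.40% ± 0.18 in S34F (SD, n = 3).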
